A study of Mus musculus with 12 samples.

Results

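The co-occurrence of 5 histone marks was described in mouse melanoma cells with intact KMT2D (WT), from the 5 autosomal WT peak lists of a chromatin immunoprecipitation sequencing (ChIP-seq) series. The lists were those of the samples titled WT for H3K4me1, H3K27ac, H3K4me3, H3K79me2 and H3K27me3, and they are 5 of the 12 samples of the series. Together they hold 94133 peaks on the 19 autosomes, of 95394 peaks on all chromosomes. The cells were isolated from ear tumours of iBIP;KMT2D+/+ mice, of mixed FVB and B6 background, and were kept in culture. The iBIP alleles are Tyr-CreERT2, Rosa26-rtta, a TetO-driven BRAF oncogene, PTENL/L and INK/ARFL/L. Tumours were started with doxycycline and 4-OHT, applied to the ears at 1 uM. The Tyr promoter, which is active in the melanocyte lineage, drives the tamoxifen-dependent Cre. All 5 lists come from this 1 genotype. How many animals, tumours or cell lines stand behind each library is not given in the sources used here, so it is not known whether the 5 marks were mapped in the same culture. The cell type could not be checked against marker genes, because no gene table of the files' build was used.

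KMT2D is one of the enzymes that place H3K4me1 at enhancers. H3K4me1 lies at enhancers and on the flanks of promoters, and H3K27ac lies at enhancers and promoters that are active. H3K4me3 marks promoters and CpG islands. H3K79me2, placed by DOT1L, covers the start and first part of transcribed genes. H3K27me3 is the mark of Polycomb repressive complex 2 and covers silenced genes. It can share a promoter with H3K4me3, an arrangement known as bivalent, while H3K27me3 and H3K27ac are alternative states of the same lysine.

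The 5 lists differ in size and form. H3K4me1 had 15974 peaks covering 24.5 Mb, H3K27ac 24759 peaks covering 52.6 Mb, and H3K4me3 14327 peaks covering 30.1 Mb. The broad lists held 25869 H3K79me2 peaks over 90.3 Mb and 13204 H3K27me3 peaks over 27.6 Mb. Median widths ran from 952 bp for H3K27me3 to 1880 bp for H3K4me3, and the widest single peak was an H3K27me3 peak of 142199 bp. At least 1 mark covered 164 Mb, or 6.84% of the 2398 Mb between the first and last peak of each autosome. Each mark has 1 library, so no test was made. Intervals are exact (Clopper-Pearson) 95% binomial intervals, which reflect counting error alone, and peaks that lie near each other are not independent observations. The read depth behind the lists is unknown, and a missing peak means only that none passed the authors' threshold.

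Overlap means at least 1 shared base. Each share is set beside the share that the same peaks would give if every position on their chromosome were equally likely (even placement), computed exactly. Peaks of all marks tended to lie in the same parts of the chromosomes, least so for H3K27me3. Over 2378 windows of 1 Mb, the lengths covered by any 2 marks were positively correlated across windows for all 10 pairs, with Spearman's rho from 0.589 for H3K79me2 and H3K27me3 to 0.923 for H3K27ac and H3K4me3. Pearson's correlation was lower, from 0.330 for H3K79me2 and H3K27me3 to 0.857 for H3K4me1 and H3K27ac. Windows without any peak of a mark, from 21.3% for H3K4me3 to 38.1% for H3K4me1, are included in both measures. Windows of a chromosome are not independent and share gene density, so these values are a description. A second reference therefore moves each peak only within 500 kb on either side of where it lies (local even placement).

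Active marks overlapped far more than either placement gives. Of the H3K4me3 peaks, 76.5% (95% interval 75.7 to 77.1) overlapped H3K27ac, against 4.18% from even placement and 9.40% from local even placement. The share ran from 70.6% on chromosome 13 to 81.9% on chromosome 19. In the other direction 44.5% of H3K27ac peaks (43.8 to 45.1) overlapped H3K4me3, 17.2 times the even share and 7.67 times the local one. This pair shared 20.8 Mb, 33.7% of the length that either of them covers, and 29.6 times the length from even placement. H3K27ac and H3K4me3 thus had the highest ratio of the 10 pairs over whole chromosomes and within windows of 1 Mb and 100 kb.

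**Figure D1:**
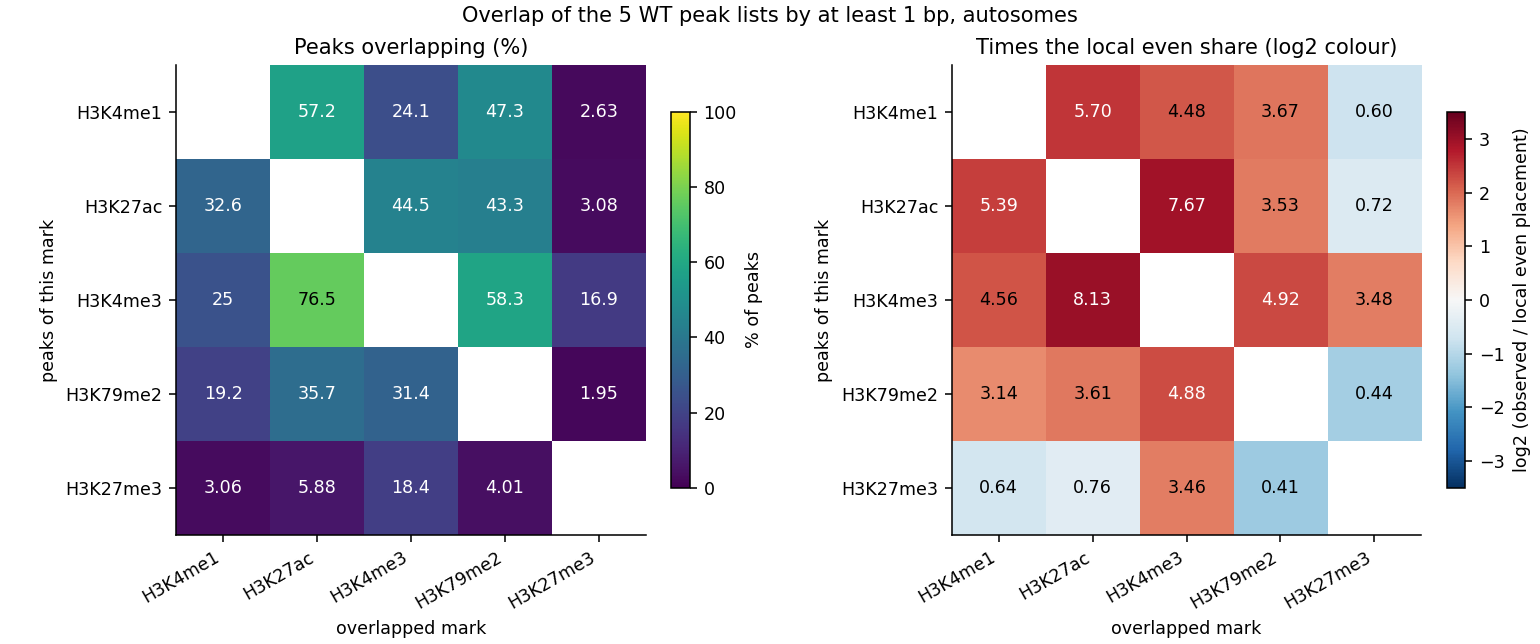
Left, percent of the autosomal peaks of each mark (rows) that overlap each other mark (columns) by at least 1 bp. Right, the same share divided by local even placement, coloured on a log2 scale. The 12 cells among H3K4me1, H3K27ac, H3K4me3 and H3K79me2 lie between 3.14 and 8.13 times the local share, and H3K27me3 is above 1 only with H3K4me3.

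The enhancer marks shared 12.4 Mb, 21.4 times the length from even placement, 7.50 times within 1 Mb and 3.33 times within 100 kb. Over chromosomes and within 1 Mb this was the second highest ratio, and within 100 kb H3K4me3 with H3K27me3, at 3.84, stood above it. Of the H3K4me1 peaks, 57.2% (56.4 to 58.0) overlapped H3K27ac, against 3.74% from even placement, and the median overlapping H3K4me1 peak was covered by H3K27ac over 91.8% of its length. Of the H3K27ac peaks, 32.6% (32.02 to 33.19) overlapped H3K4me1, where the median cover was 58.9%. H3K4me1 peaks that did not touch H3K27ac lay a median of 7786 bp from the nearest one. Within 10000 bp, 81.1% of all H3K4me1 peaks had an H3K27ac peak, against 15.2% from even placement.

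H3K4me1 and H3K4me3 met less often than either met H3K27ac. H3K4me3 overlapped 24.1% of H3K4me1 peaks (23.4 to 24.8), and H3K4me1 overlapped 3582 of the 14327 H3K4me3 peaks (24.3 to 25.7%). Both are above the local share, by 4.48 and 4.56 times. Around the centres of H3K4me3 peaks, H3K4me1 covered 9.69% of the central positions and reached its highest cover, 11.9%, at 850 bp from the centre. Along both edges of the 6368 H3K4me3 peaks at least 2000 bp wide, H3K4me1 cover was 11.6% between 1000 and 750 bp inside the edge and 16.1% in the last 250 bp before it. It then fell to 8.42% between 1000 and 1250 bp outside. H3K27ac had no such shoulder, with 84.0%, 48.8% and 12.4% at the same 3 positions.

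**Figure D2:**
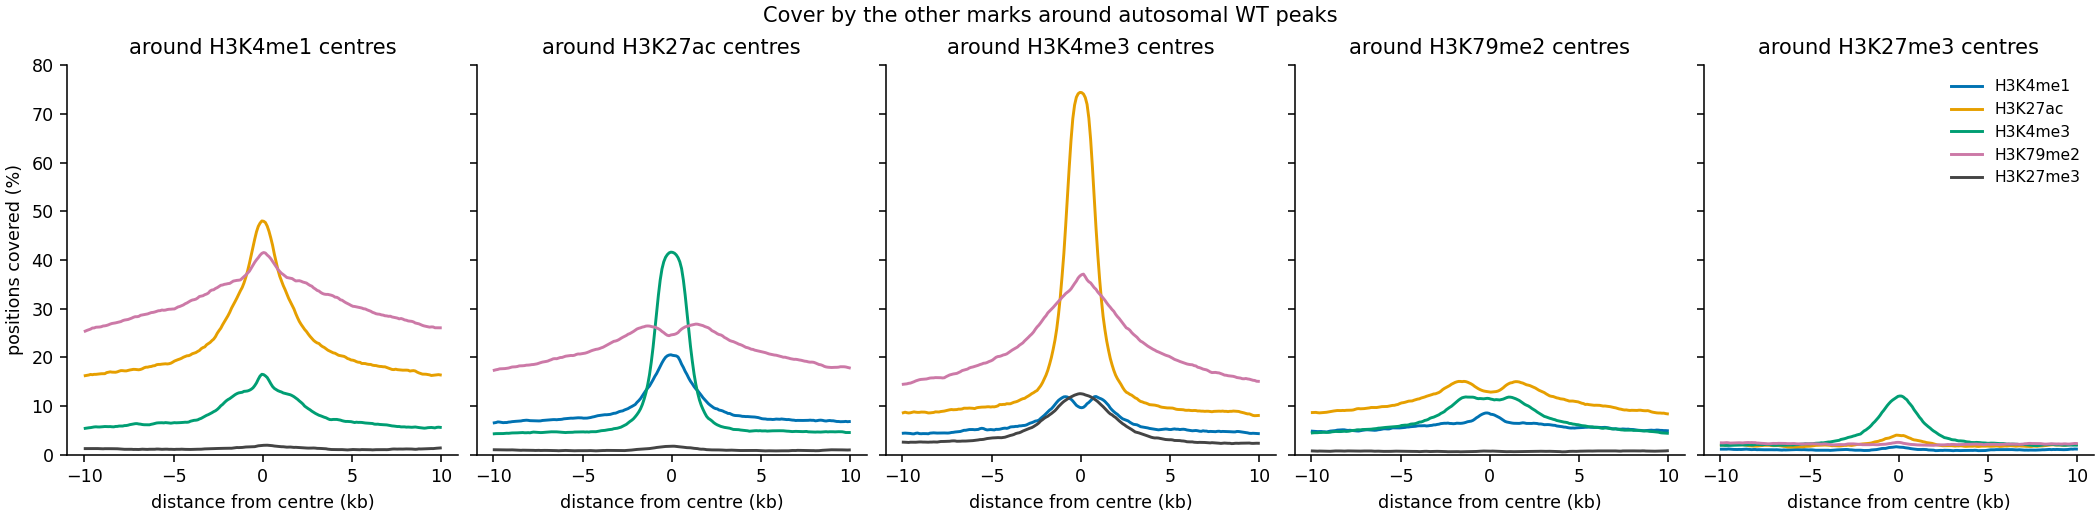
Percent of positions covered by each other mark within 10 kb of the centres of the autosomal peaks, 1 panel per centred mark, averaged over both strands without orientation. H3K27ac reaches 74.4% at H3K4me3 centres, H3K4me1 dips there to 9.69%, and H3K79me2 dips at H3K27ac centres to 24.6% between flanks of 26.6%.

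H3K79me2 met the promoter and enhancer marks in shared stretches with medians of 959 bp (H3K27ac), 1086 bp (H3K4me1) and 1131 bp (H3K4me3). It overlapped 58.3% of H3K4me3 peaks (57.5 to 59.1), 47.3% of H3K4me1 peaks (46.49 to 48.05) and 43.3% of H3K27ac peaks (42.7 to 44.0). The 3 shares were 9.96, 8.65 and 7.50 times those from even placement. When at least 50% of the peak had to be covered, the H3K4me3 share was 36.3%. The way the marks met differed. Of the H3K4me1 peaks that touched H3K79me2, 67.5% lay wholly inside it, while 12.9% of the H3K4me3 peaks and 23.0% of the H3K27ac peaks that touched it did so. Where they touched, H3K4me1 peaks were thus mostly nested in H3K79me2, and H3K4me3 and H3K27ac peaks mostly extended beyond it. A narrower peak fits inside more easily. The median widths of these touching peaks were 1295 bp for H3K4me1, 2268 bp for H3K4me3 and 1962 bp for H3K27ac. Over all 15974 H3K4me1 peaks, 5099 lay wholly inside H3K79me2. Seen from H3K79me2 the shares were lower, with 35.7% of its peaks on H3K27ac, 31.4% on H3K4me3 and 19.2% on H3K4me1.

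The position of the promoter mark within H3K79me2 was examined in the 2039 H3K79me2 peaks of at least 10000 bp, whose median length was 15435 bp. H3K4me3 lay in the outer 2000 bp of exactly 1 end in 1480 of them, or 72.6% (70.6 to 74.5). It lay at both ends in 25, inside but at neither end in 69, and nowhere in 465. A window of 2000 bp in the middle of the same peaks held H3K4me3 in 7.01% (5.94 to 8.21). Long H3K79me2 peaks were therefore 1-sided with respect to H3K4me3. H3K27ac touched 84.5% of the long peaks and 31.5% of the 23830 shorter ones. H3K4me1 touched 60.6% and 15.6%, and H3K27me3 touched 3.29% and 1.83%. A longer peak has more room to touch any mark. Per length H3K27ac covered 16.8% of the long peaks, close to the 17.1% over all H3K79me2, and H3K4me1 15.2% against 12.0% over all. H3K27me3 was sparser per length in the long peaks, at 0.241% against 0.549% over all.

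Read from the H3K4me3 end, these 1480 peaks showed an order of marks. H3K4me3 itself, which sets the orientation, covered 93.3% of the first kb inside and 80.6% of the kb just outside. H3K27ac covered 81.0% of the kb just outside, 86.6% of the first kb inside and 45.9% of the second, and it levelled near 10.7% at 9 to 10 kb. H3K4me1 was low at the H3K4me3 end, at 3.45% of the kb just outside and 8.36% of the first kb inside. It was highest in the second kb inside, at 20.7%, and still at 13.7% at 9 to 10 kb. With each peak divided into 10 equal parts, in the part farthest from H3K4me3 H3K4me1 covered 8.56%, H3K27ac 6.87% and H3K4me3 0.05%. From part 3 on, H3K4me1 covered more of the H3K79me2 length than H3K27ac did, at 17.0% against 15.4% in part 3 itself.

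**Figure D3:**
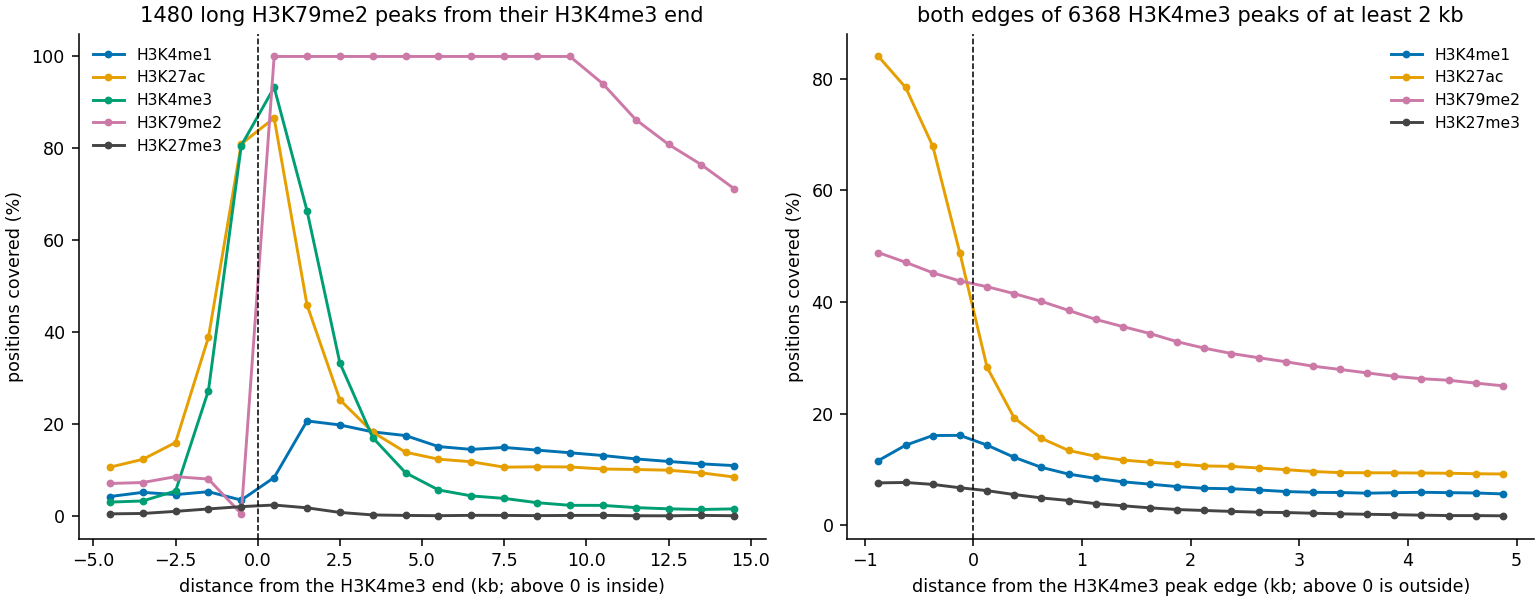
Left, percent of positions covered in 1 kb steps from 5 kb outside to 15 kb inward of the H3K4me3 end of the 1480 H3K79me2 peaks of at least 10000 bp with H3K4me3 at exactly 1 end. Steps beyond 10 kb run past the far end of the shorter peaks, and H3K79me2 cover falls to 71.2% at 14 to 15 kb. Right, cover in 250 bp steps from 1 kb inside to 5 kb outside both edges of the 6368 H3K4me3 peaks at least 2000 bp wide. H3K4me1 peaks at 20.7% in the second kb inside H3K79me2 and at 16.1% near the H3K4me3 edge.

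H3K27me3 departed from the other marks with 1 exception. H3K4me3 overlapped 18.4% of H3K27me3 peaks (17.8 to 19.1), 7.08 times the even share and 3.46 times the local one. When at least 50% of the H3K27me3 peak had to be covered, the share was 8.77%. H3K27me3 overlapped 16.9% of H3K4me3 peaks (16.2 to 17.5). The pair shared 3.05 Mb, which was 8.04 times the length from even placement, 3.94 times within windows of 1 Mb and 3.84 times within windows of 100 kb. It was above 1 on all 19 autosomes, from 3.30 to 19.8 times. Where they met, the median H3K4me3 peak was covered by H3K27me3 over 88.2% of its length, and 1086 of the 2415 lay wholly inside.

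H3K27me3 and H3K79me2 shared less than even placement gives. Of the H3K79me2 peaks, 1.95% (1.78 to 2.12) overlapped H3K27me3, against 2.64% from even placement and 4.41% from local even placement. Of the H3K27me3 peaks, 4.01% (3.69 to 4.36) overlapped H3K79me2, against 5.65% and 9.69%. The 0.496 Mb they shared were 0.445 times the length from even placement over chromosomes, 0.269 times within 1 Mb and 0.488 times within 100 kb. On 18 of the 19 autosomes the ratio was below 1, and on the other it was 1.17. Limited to the stronger peaks of each list (a score of at least 200, or a −log10 q of at least 5), 0.52% of H3K79me2 peaks overlapped H3K27me3. Even placement of these shorter lists gives 1.24%.

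For H3K27me3 with H3K4me1 and with H3K27ac, the reference decided the side of 1. H3K27me3 overlapped 2.63% of H3K4me1 peaks (2.39 to 2.89) and 3.08% of H3K27ac peaks (2.87 to 3.30), which were 1.24 and 1.33 times the even share but 0.600 and 0.721 times the local one. Shared length behaved the same way. It was 1.30 and 1.11 times that of even placement over chromosomes, and 0.618 and 0.594 times within 1 Mb windows. Over whole chromosomes, 14 and 13 of the 19 autosomes were above 1. Limited to the stronger peaks, with a score of at least 200 or a −log10 q of at least 5, the whole-chromosome ratios were 0.907 and 0.281. For the full lists within 100 kb windows, the ratios were 0.945 and 0.915, closer to 1 than within 1 Mb windows.

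**Figure D4:**
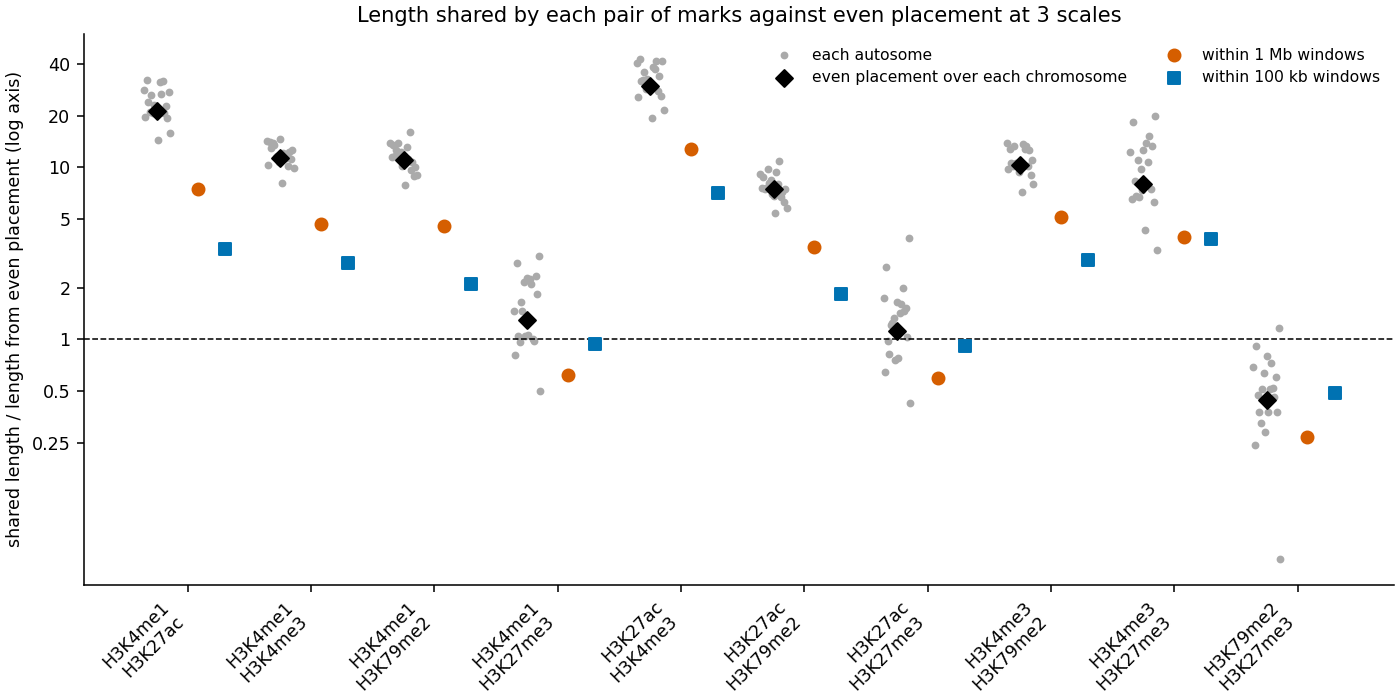
Length shared by each pair of marks divided by the length from even placement, on a log axis, over whole chromosomes (diamonds, with each of the 19 autosomes in grey), within 1 Mb windows (circles) and within 100 kb windows (squares). The dashed line is 1. H3K79me2 with H3K27me3 is below 1 at every scale, at 0.445, 0.269 and 0.488, and H3K4me1 and H3K27ac with H3K27me3 change sides.

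Distances to the nearest peak of each other mark were also taken, and their medians depend on list size too. H3K27me3 peaks lay a median of 65278 bp from the nearest H3K79me2 peak, 69626 bp from H3K4me1, 47234 bp from H3K27ac and 25623 bp from H3K4me3. H3K79me2 peaks lay a median of 104077 bp from H3K27me3 but 3461 bp from H3K27ac. Within 10000 bp, 12.3% of H3K27me3 peaks had an H3K79me2 peak, below the 13.8% from even placement, whereas within 100000 bp 65.9% did, above 40.6%. The 2 marks thus lay in the same neighbourhoods but less often side by side than even placement gives. H3K4me1 lay within 10000 bp of 12.7% of H3K27me3 peaks, above the 9.85% from even placement. Among H3K4me3 peaks without H3K27ac, the nearest H3K27ac peak was a median of 33714 bp away, and 5.42% of them had one within 1000 bp. Over all H3K4me3 peaks, 76.5% overlapped H3K27ac and 77.7% had it within 1000 bp. Even placement gives 4.18% and 5.72%.

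All peaks that touch, of any mark, were joined into 54582 marked regions, and each region was assigned to 1 of the 31 possible combinations. A single mark stood alone in 37426 regions (68.6%, interval 68.18 to 68.96). Another 8121 regions held 2 marks, 5570 held 3, 3342 held 4 and 123 held all 5. Median lengths were 1026, 2258, 4314, 8132 and 9522 bp for 1 to 5 marks, an order that joining more peaks brings by construction. The 3342 regions with 4 marks were 6.12% of regions and 25.1% of the marked length.

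The most frequent combinations were H3K79me2 alone (14939 regions), H3K27me3 alone (10506) and H3K27ac alone (7450). The most frequent combination of several marks was H3K27ac, H3K4me3 and H3K79me2, with 3827 regions of median length 4478 bp. All 4 marks other than H3K27me3 were present in 2953 regions of median length 8686 bp, which made up 23.4% of the marked length. H3K4me1 with H3K27ac alone, the pattern of active enhancers, was found in 2837 regions, and H3K27ac with H3K4me3 alone in 2218. H3K4me3 with H3K27me3 alone, the bivalent pattern, was found in 1309 regions of median length 3778 bp. H3K4me1 with H3K4me3 and no further mark was rare, with 85 regions, as was H3K79me2 with H3K27me3 alone, with 26. H3K27ac with H3K27me3 and nothing else was found in 42.

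**Figure D5:**
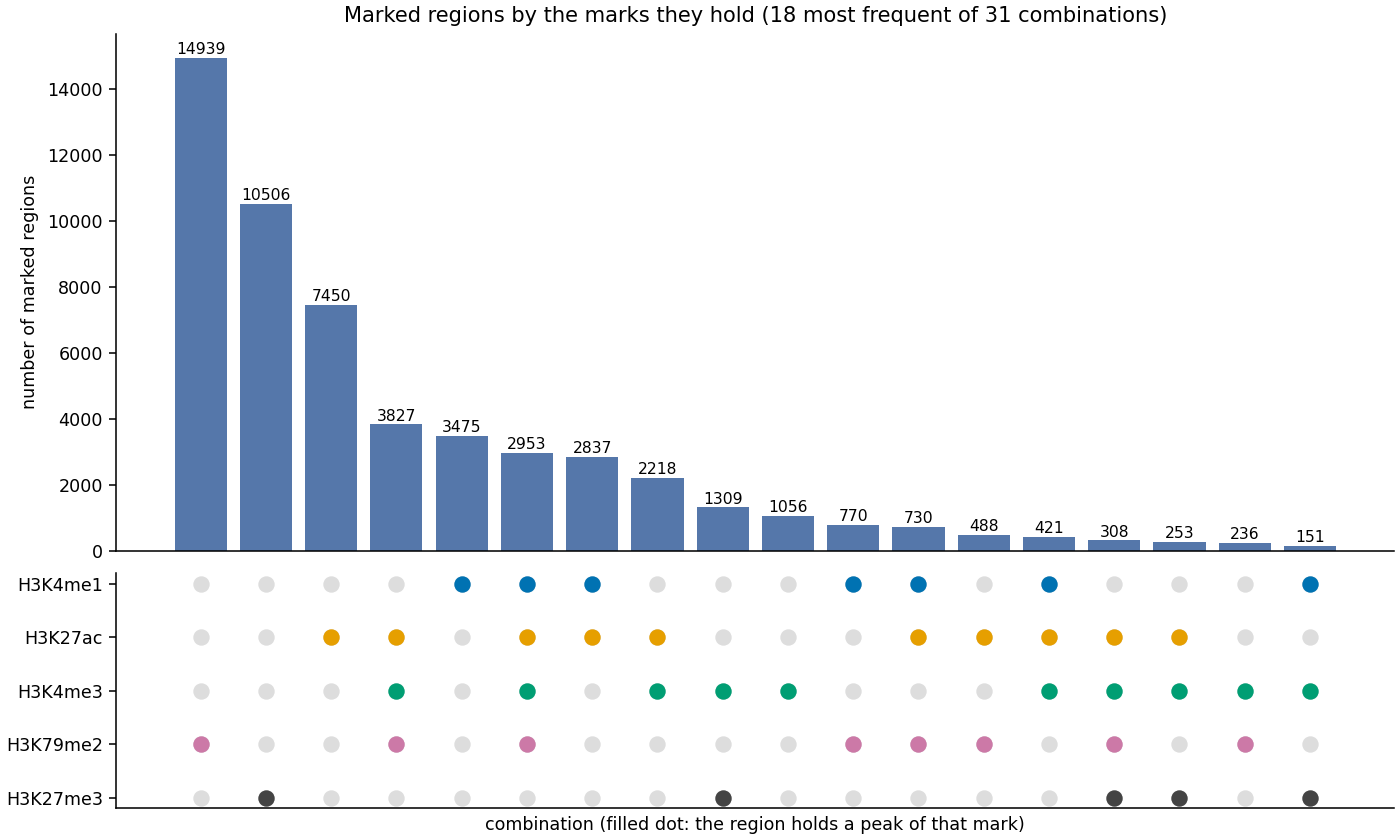
Number of marked regions (joined peaks, autosomes) for the 18 most frequent of 31 combinations, with filled dots for the marks each region holds. The 3 highest bars are single marks, at 14939, 10506 and 7450 regions, and the highest bar with several marks is H3K27ac, H3K4me3 and H3K79me2 at 3827.

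Marks differed in how often they stood alone. No other mark touched 79.6% of H3K27me3 peaks (78.9 to 80.3) and 57.7% of H3K79me2 peaks (57.1 to 58.4), against 30.1% of H3K27ac, 21.8% of H3K4me1 and 7.37% of H3K4me3 peaks. For isolation by more than 10000 bp the order was the same for H3K27me3 (59.8%), H3K79me2 (24.8%), H3K27ac (12.6%), H3K4me1 (8.48%) and H3K4me3 (3.79%). Peaks that stood alone were narrower and scored lower within their own list. The median H3K79me2 peak alone spanned 935 bp and the median one in company 3146 bp, and H3K4me3 peaks alone had a median score of 251, against 1037. The score is the authors' own value per peak, 10 times the −log10 p for the MACS lists.

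The peaks of each mark divided differently among the combinations. Of the 14327 H3K4me3 peaks, the largest class overlapped H3K27ac and H3K79me2 without H3K4me1 or H3K27me3, with 4692 peaks (32.7%, 31.98 to 33.52). It was followed by the 2595 that overlapped all 3 active partners (18.1%), the 2449 with H3K27ac only (17.1%) and the 1421 with H3K27me3 only (9.92%). Their median widths were 2210, 2510, 1508 and 1407 bp, and their median scores 1526, 1596, 583 and 286. H3K4me3 peaks with H3K27ac, H3K79me2 and H3K27me3 but no H3K4me1 numbered 347 and were wide, at a median of 2951 bp with a score of 1586. The 95 with H3K79me2 and H3K27me3 alone had a median of 2372 bp. Bivalent H3K4me3 peaks without active marks were thus among the narrow and weak ones, and those with H3K27ac and H3K79me2 among the wide and strong ones.

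H3K4me1 peaks fell into more even classes. H3K27ac alone accompanied 3742 of them (23.4%), no mark 3475 (21.8%), H3K79me2 alone 2583 (16.2%), H3K27ac with H3K4me3 and H3K79me2 2428 (15.2%), and H3K27ac with H3K79me2 2152 (13.5%). The class with H3K27ac and H3K79me2 but no H3K4me3 had the widest peaks of these 5, at a median of 1571 bp, against 1273 bp with H3K27ac alone and 1107 bp with H3K79me2 alone. H3K27me3 alone touched 143 H3K4me1 peaks, and H3K27me3 with H3K4me3 touched 158.

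On the broad lists, H3K79me2 peaks that held all 3 active partners were the longest of the large classes, with 2801 peaks of median width 6368 bp, against 2852 bp for the 4276 with H3K27ac and H3K4me3. H3K27me3 peaks with H3K4me3 alone numbered 1445, with a median width of 3270 bp. The 304 with H3K4me3, H3K27ac and H3K79me2 were narrower, at 1436 bp, as were the 315 with H3K4me3 and H3K27ac, at 1393 bp. Over the whole list, the 777 H3K27me3 peaks on H3K27ac were wider than the rest, at a median of 1388 bp against 932 bp.

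Because stronger peaks are wider and overlap more, shares were also taken in 5 equal groups by score. H3K4me3 peaks overlapped H3K27ac in 46.5% of the weakest group and 99.2% of the strongest, and H3K79me2 in 26.3% and 95.7%. With H3K27me3 the order was the opposite, 26.1% and 6.95%, although the strongest group was wider, at a median of 3148 bp against 988 bp. H3K4me1 peaks showed the same contrast in weaker form, with H3K27ac on 43.0% and 78.8% of them and H3K27me3 on 3.38% and 1.19%. Their median width rose from 841 to 2490.5 bp. Over even placement of peaks of these widths, the H3K27ac shares differed less, at 13.6 and 16.1 times on H3K4me1 peaks. On H3K4me3 peaks they were 14.2 and 18.8 times, with 21.7 in group 4. The H3K27me3 shares were 1.92 and 0.428 times on H3K4me1 peaks, and 14.3 and 2.36 times on H3K4me3 peaks. Seen from the broad lists, H3K4me3 was more frequent at strong peaks of both, at 9.62% and 78.9% of H3K79me2 peaks and at 6.02% and 37.8% of H3K27me3 peaks. The strongest groups were also wider, at medians of 6062 bp against 641 bp for H3K79me2 and 4230 bp against 586 bp for H3K27me3. Over even placement, which takes width into account, the H3K79me2 shares were 5.39 and 12.6 times. The H3K27me3 shares were 3.37 and 8.41 times, with 9.52 in group 4. H3K4me3 strength thus divided the 2 relations, and stronger H3K27me3 peaks, which were also wider, overlapped H3K4me3 more.

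An additional mark went with large differences in how a pair met. H3K4me3 peaks that held H3K27me3 overlapped H3K27ac in 30.6% of cases (28.8 to 32.5), and those without it in 85.7% (85.1 to 86.4). The share was lower with H3K27me3 in all 5 score groups and all 5 width groups. H3K79me2 followed the same pattern on H3K4me3 peaks, at 21.2% with H3K27me3 and 65.8% without, a difference of -44.6 points that was -27.3 within score groups. So did H3K4me1, at 11.6% and 27.7%. The presence of H3K79me2 went with more H3K27ac on H3K4me3 peaks, 92.1% against 54.5%, a difference of 37.6 percentage points that was 18.4 points when averaged within score groups and 26.3 within width groups.

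H3K4me1 and H3K4me3 each went with more H3K27ac on the other's peaks, but split the H3K27ac list. H3K4me1 peaks with H3K4me3 overlapped H3K27ac in 83.7% of cases (82.5 to 84.9), and those without in 48.8% (47.9 to 49.7). On H3K27ac peaks, in contrast, H3K4me1 was found at 27.9% of those with H3K4me3 (27.1 to 28.8) and 36.4% of those without (35.6 to 37.2). That order held in all 5 score groups and all 5 width groups, and the difference of -8.47 points was -17.9 within score groups. The median H3K27ac peak with H3K4me3 and H3K79me2 but no H3K4me1 was 1939 bp wide, and with all 3 it was 2720 bp wide.

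H3K27me3 met H3K27ac and H3K79me2 mainly where H3K4me3 was present too, and H3K4me1 less so. Of the 777 H3K27me3 peaks on H3K27ac, 89.7% also held H3K4me3 (87.3 to 91.8), against 14.0% of those without H3K27ac. Of the 530 on H3K79me2, 87.5% held H3K4me3, against 15.5%. Of the 404 on H3K4me1, 62.9% did (58.0 to 67.6), against 17.0%. H3K27me3 peaks without H3K4me3 touched H3K27ac in 0.743% and H3K79me2 in 0.613% of cases. Among H3K27me3 peaks the 337 of at least 10000 bp held H3K4me3 in 45.1% of cases (39.7 to 50.6), H3K4me1 in 8.31%, H3K27ac in 2.97% and H3K79me2 in 1.78%. For the 12867 shorter peaks these shares were 17.7%, 2.92%, 5.96% and 4.07%. A longer peak has more room to touch any mark, and per length all 4 marks were sparser in the long peaks. H3K4me3 covered 5.17% of the length of long peaks and 12.6% of that of shorter ones, and H3K4me1 0.782% and 1.66%. H3K27ac covered 0.329% and 3.27%, and H3K79me2 0.159% and 2.23%.

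H3K27ac and H3K27me3 were found together in 739 H3K4me3 peaks, whose median width was 2494 bp. In 666 of them, or 90.1% (87.7 to 92.2), the 2 marks covered some of the same bases, with a median of 862 bp shared, and in the other 73 they lay side by side. Within these peaks H3K27ac covered 66.3% of the length and H3K27me3 46.3%, and both covered 31.9%. Placing the 2 evenly within each peak would give 29.9%. Both marks on the same bases in peak lists from a population of cells does not show that they sat on the same nucleosome, allele or cell.

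Most regions with all 5 marks held no base that all 5 covered, though fewer marks could share bases there. Of the 123 such regions, 16 held a stretch where all 5 covered the same bases, in 18 stretches that added up to 8366 bp. Even placement of the 5 lists, each independent of the others over the whole span, would give 2.93 bp. The count of such regions depended on the threshold, with 10 left among peaks with a score of at least 200 or a −log10 q of at least 5, and 66 when every list was limited to its 13204 strongest peaks. The longest stretch with all 5 on the same bases was 1177 bp, at chr10:126603696-126604872 (mm9, as are all positions here). Of the bases covered by any mark, 73.1% carried 1 mark, 17.9% carried 2, 7.63% carried 3, 1.36% carried 4 and 0.0051% carried 5.

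Single regions show these relations at their longest. The longest stretch under both H3K4me1 and H3K27ac was 14461 bp at chr5:34868765-34883225, a single peak of each, with H3K79me2 over 12739 bp of it and H3K4me3 over 4306 bp. H3K27ac and H3K4me3 shared 13489 bp at chr11:69220691-69234179, and H3K4me1 covered 4355 bp there. H3K4me1 and H3K79me2 shared 20307 bp at chr2:26336983-26357289, which held 3 H3K27ac and 5 H3K4me3 peaks. In each of these 3 stretches all 4 active marks were present and H3K27me3 was not. The same held where H3K4me1 and H3K4me3 shared 6681 bp at chr9:57485290-57491970. The longest stretches of the remaining active pairs lacked 1 of the 4 marks. H3K27ac and H3K79me2 shared 19851 bp at chr2:38384444-38404294, with 5 H3K4me1 peaks and no H3K4me3. H3K4me3 and H3K79me2 shared 12944 bp at chr15:85499051-85511994, with H3K27ac over 5930 bp and no H3K4me1.

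The longest shared stretches with H3K27me3 were shorter. H3K4me3 and H3K27me3 shared 6046 bp at chr7:38552585-38558630, with H3K27ac over 3212 bp and H3K79me2 over 3499 bp. The next, of 5926 bp at chr5:75547188-75553113, held no H3K27ac and 805 bp of H3K79me2. H3K79me2 and H3K27me3 shared 5357 bp at chr11:120094945-120100301, of which H3K4me3 covered 5044 bp and H3K27ac 4579 bp. H3K4me1 and H3K27me3 shared 3867 bp at chr8:72896773-72900639, with 1723 bp of H3K4me3 and neither H3K27ac nor H3K79me2. In the last 2, whose pairs do not include H3K4me3, it was present as well.

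The longest marked region covered 144831 bp at chr8:125423582-125568412. It held 29 H3K4me1, 15 H3K27ac, 3 H3K4me3 and 3 H3K79me2 peaks, and H3K79me2 covered 142159 bp of it. The second, of 142199 bp at chr15:102737612-102879810, was a single H3K27me3 peak that no other mark touched. The third, of 134771 bp at chr8:119775539-119910309, held 32 H3K4me1, 17 H3K27ac and 8 H3K4me3 peaks within 1 H3K79me2 peak and its flanks. The longest regions therefore came in 2 forms, H3K79me2 blocks filled with active marks and an H3K27me3 block alone.

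Strong peaks that stood alone also occurred. No filter for regions of unreliable mapping was applied here, so it was not checked whether these peaks are mapping artefacts. The best-scored H3K4me3 peak with no other mark within 10000 bp, at chr17:39979832-39984021, had a score of 3100 and lay 1031940 bp from the nearest peak of another mark. The next, at chr3:45179733-45186027, scored 2110 and lay 3632880 bp from one. Of the isolated H3K27ac peaks the best scored 3125, was 10846 bp wide and lay at chr4:132142194-132153039, 14446 bp from the nearest other mark. The best isolated H3K4me1 peak, at chr12:110150200-110154399, scored 919. The best isolated H3K79me2 peak, at chr9:100994314-101005026, was 10713 bp long with a −log10 q of 14.5 and a fold enrichment of 7.21. For H3K27me3 it was the peak at chr2:25143721-25148317, with a −log10 q of 10.8 and a fold enrichment of 5.61.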

How the data were processed

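ChIP-seq peak lists of 5 marks in WT cells were used, 1 library per mark. The submitters' processing notes name Bowtie, MACS, MACS2, deepTools and mm9, without versions or roles, and whether inputs served as controls is not given in the sources used here. The H3K4me1, H3K27ac and H3K4me3 lists the authors deposited give a score per peak that reads as 10 times −log10 p. The H3K79me2 and H3K27me3 lists are broad peaks, for each of which the authors deposited −log10 values of p and of q, a score and a fold enrichment (a ratio). Such values were compared only within a list. Peak lists carry no counts, so depth is unknown.

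Overlaps, shared bases and distances were computed on the 19 autosomes with Python 3.11.15, numpy 2.4.6, pandas 2.3.3 and scipy 1.17.1, with code checked against brute force on made-up intervals. The shuffled expectation was computed exactly, without draws, over the span between the first and last WT peak of each autosome, within 500 kb of each peak, or within windows of 1 Mb and 100 kb. Named regions were the 2 longest shared stretches of each pair, the 5 longest with all 5 marks, the 3 longest regions and, per mark, the 2 best-scored peaks with no other mark within 10000 bp; a selection is printed. Coordinates count from 1. The alternatives were stricter thresholds, 50% cover, a 1000 bp allowance, equal list sizes, chromosome X and the scale of even placement. The long H3K79me2 and H3K27me3 peaks, peak edges and overlaps within H3K4me3 peaks were examined after seeing the data. The marks and measures were chosen with earlier results of these data known. No genome or gene table of mm9 was used, so no gene names or sequences are given, and the mutant and input samples were not used.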

Additional observations from a re-analysis of the deposited data

Results flagged for a closer look

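Chromosome X, which the autosomal comparisons leave out, held WT peaks of every mark. It had 7 H3K4me1, 298 H3K27ac, 392 H3K4me3, 483 H3K79me2 and 73 H3K27me3 peaks. H3K4me1 stood at 0.0436 peaks per Mb there, against 6.66 per Mb over the autosomes and 3.88 on chromosome 3, the lowest autosome. H3K27ac stood at 1.86 per Mb on X and 10.3 on the autosomes, H3K4me3 at 2.44 and 5.97, H3K79me2 at 3.01 and 10.8, and H3K27me3 at 0.455 and 5.51. The combinations on X shifted with these densities. H3K4me1 overlapped 1.34% of H3K27ac peaks on X (4 of 298, 95% interval 0.367 to 3.40), against 32.6% on the autosomes. H3K4me3 overlapped 75.5% of H3K27ac peaks on X (70.2 to 80.3), against 44.5%. In the other direction the share was lower on X, where H3K27ac overlapped 56.4% of H3K4me3 peaks (51.3 to 61.3), against 76.5%. H3K27me3 overlapped 3.83% of H3K4me3 peaks on X (2.16 to 6.23), against 16.9%. The sex of the cells and the copy number of X are not given in the sources used here, and their part in these values was not tested.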

How the results depend on the processing

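Single libraries of unknown depth allow no replicate check, and the threshold of each list sets its length. No paired analysis was possible because each mark has 1 library. The count of pairs above even placement was 9 of 10 in the main setting and 7 to 9 in the 6 alternatives. Under a score of at least 200 or −log10 q of at least 5, the share of H3K4me1 peaks on H3K27ac was 60.8%, of H3K27ac on H3K4me3 52.6%, of H3K4me3 on H3K27ac 70.6%, of H3K4me3 on H3K79me2 54.8%, of H3K27me3 on H3K4me3 26.8% and of H3K79me2 on H3K27me3 0.52%. The even share for the last of these was 1.24%, against 2.64% in the main setting. At equal list sizes of 13204 peaks the same 6 shares were 44.2%, 59.3%, 60.3%, 50.5%, 16.9% and 2.42%. A score of at least 100 or −log10 q of at least 3 moved the H3K27ac share on H3K4me3 to 45.5%. With cover of at least 50% of the peak they were 47.6%, 40.2%, 72.9%, 36.3%, 8.77% and 0.704%. With peaks within 1000 bp they were 64.0%, 47.0%, 77.7%, 62.4%, 20.8% and 2.32%. Regions with all 5 marks fell from 123 to 10 under the stricter threshold and 66 at equal list sizes. H3K4me3 at exactly 1 end was found in 61.1% of H3K79me2 peaks of at least 5000 bp and 82.2% of those of at least 20000 bp, both chosen after seeing the data.

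The shared length of H3K4me1 and H3K27me3 fell below that of even placement under the stricter threshold (0.907 times), within 1 Mb (0.618) and within 100 kb (0.945). That of H3K27ac and H3K27me3 did so under the stricter threshold (0.281), at equal list sizes (0.878), within 1 Mb (0.594) and within 100 kb (0.915). Under local even placement the 4 shares of these pairs were 0.600, 0.721, 0.640 and 0.763 times. The cause was not tested.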
